A study of Mus musculus with 14 samples.

Results

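Astrocytes lacking connexin43 (Cx43, the product of Gja1) were compared with wild-type astrocytes over the whole transcriptome. The comparison used 7 of the 14 samples of the series: the 4 samples titled Cx43_null (replicates 1 to 4, called null 1 to null 4 here) and the wild_type samples of replicates 3, 4 and 6. All were cultures from newborn mice, titled as cortical astrocytes, whereas the protocol describes minced whole brain. Each littermate's brain was cultured on its own in medium with serum, and the cells were passaged before use. The labels name no allele, strain or sex for the null or the wild type, and nothing in them ties a sample to one culture, so p-values here reflect the scatter among these samples alone, and this scatter may be technical. From each sample, 20 ug of total RNA was labelled with 1 dye, Cy3 (wild type 3, null 1 and null 3) or Cy5 (wild type 4, wild type 6, null 2 and null 4), for spotted arrays of mouse oligonucleotides. The remaining 3 wild-type columns were left out because they did not follow the others: across probes, the correlation with the average of the remaining columns was 0.370 for wild type 1, 0.380 for wild type 2 and -0.0201 for wild type 5. For the 7 samples used it was 0.894 to 0.948.

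Cx43 is the main gap junction protein of astrocytes. Connexins assemble into hemichannels, and hemichannels of neighbouring cells dock into channels that pass ions, metabolites and second messengers, so that astrocytes in culture form a coupled network. Cx43 also binds scaffold and cytoskeletal proteins, and its loss has been studied for effects on growth, adhesion, calcium waves and purinergic signalling. The comparison asks how the set of transcripts in astrocytes differs when this one gap junction gene is missing.

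The deposited values are log2 numbers, 1 per probe and sample, with the median of each sample at 0. Of 33600 probes, 18179 carry 1 gene symbol, and 18263 to 26826 probes (54.4 to 79.8%) had a value in each of the 7 samples. Probes with at least 2 values on each side were tested, 20950 in all, of which 12778 carry 1 symbol and represent 10214 of the 13661 named genes. Values come without intensity or background, so the number of arrays limits the precision.

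The null samples came as 2 unlike pairs. Across probes measured in both members, null 1 and null 2 correlated at 0.991 and null 3 and null 4 at 0.927, but members of different pairs correlated at 0.753 to 0.781. Null 3 and 4 correlated at 0.852 to 0.925 with the wild-type samples, and null 1 and 2 at 0.801 to 0.832. Null 3 was therefore closer to wild type 3 (0.925) than to null 1 (0.753). Each pair holds consecutive replicate numbers of 1 group with 1 Cy3 and 1 Cy5 sample; whether a pair shared an array is not given, and the part of the array in these correlations was not tested. Sample values below are therefore given in the order null 1, 2, 3 and 4.

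**Figure D1:**
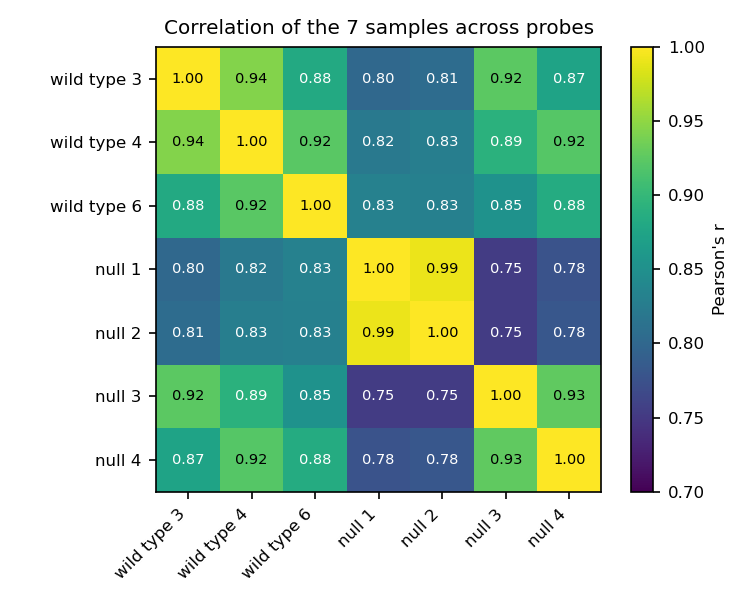
Pearson correlation across probes between the 7 samples (rows and columns), on a colour scale from 0.7 to 1 with the value written in each cell. Null 1 and 2 form a block at 0.991 and reach only 0.753 to 0.781 with null 3 and 4, which lie nearer to the wild-type samples.

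The targeted gene read lower in every null sample than in wild type. Gja1, read by 1 probe, stood at 6.08, 7.53 and 4.82 in wild type 3, 4 and 6, at -1.17 and -1.06 in null 1 and 2, and at 2.82 and 3.03 in null 3 and 4. All 4 null values lay below all 3 wild-type values, and null 1 and 2 lay below the median probe of their arrays whereas null 3 and 4 did not. The means were 6.14 ± 1.35 (SD, n = 3) in wild type and 0.91 ± 2.33 (SD, n = 4) in null, a difference of -5.23 on the log2 scale (37.7-fold). The two-sided exact permutation test gave p = 0.0286, the smallest that the 35 splits of 7 samples allow. The difference of null 1 and 2 from wild type was -7.25 (153-fold) and that of null 3 and 4 was -3.22 (9.30-fold). For null 3 and 4 an exact permutation test over the 10 splits gave p = 0.2. So few splits cannot give a p under 0.05, so this test could not decide. The labels do not place the probe relative to the deletion.

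In the limma fit of the 7 samples with dye as a covariate, Gja1 differed by -5.21 ± 1.27 (SE) with an unadjusted p of 0.00299, rank 76 among all tested probes, and an adjusted p of 0.767. With a further term for the replicate set (replicates 1 and 2 against 3 and above), which compares null 3 and 4 with the 3 wild-type samples, the difference was -3.19 ± 0.67 with an adjusted p of 0.021.

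The 250 bases before the RefSeq start of Gja1 (GRCm38.p6, chr10:56377050-56377299, plus strand) are shown because this is the gene the null lacks. Capitals mark any of 4 motifs found on either strand. The TATA box was searched as TATAAA and the GC box as GGGCGG. The CCAAT box was searched by the letters of its name, and the AP-1 element as TGAGTCA.
Gja1: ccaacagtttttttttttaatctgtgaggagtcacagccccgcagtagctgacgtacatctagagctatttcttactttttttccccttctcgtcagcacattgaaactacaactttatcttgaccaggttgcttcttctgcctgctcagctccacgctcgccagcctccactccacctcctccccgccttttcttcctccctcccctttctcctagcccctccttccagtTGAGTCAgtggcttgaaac
The window held 1 match, an AP-1 element close to the start. Of 32851 promoter windows of this length in the RefSeq table, 4.46% held TGAGTCA, 12.4% TATAAA, 32.7% GGGCGG and 33.8% CCAAT. A match describes the letters only.

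Of the other genes of the family, 6 of 23 connexin and pannexin genes (15 on the array) had a tested probe, Gja1 among them. Gjb1, the connexin of myelinating cells and liver, read -1.77, -2.41 and -2.46 in wild type and -0.50, -0.60, -1.63 and -0.94 in null, a fitted difference of 1.28 ± 0.51 with an unadjusted p of 0.0353 (limma). Gjb5, a connexin of skin, read -1.37, -1.57 and -2.49 in wild type and -0.41, -0.53, -0.74 and -0.23 in null, a difference of 1.31 ± 0.49 with an unadjusted p of 0.0279. For both, the null values lay above the wild-type values without overlap, and in every sample both probes read below the median of the array.

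Gjc1, which encodes connexin45, overlapped between the groups, with 2.05, 1.21 and 0.50 in wild type and 1.02, 0.95, 1.96 and 2.43 in null. Panx1, a channel protein of the related pannexin family, also overlapped, at 0.66, -0.24 and 0.26 in wild type and -0.45, -0.37, 0.40 and 0.19 in null. Gjb2, connexin26 of astrocytes and leptomeninges, read -2.56, -2.53 and -3.79 in wild type and had a single null value, -1.79 in null 4. Gjb6, connexin30 and the second main astrocyte connexin, had no probe under that name. No member other than Gja1 passed an adjusted threshold in either fit.

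**Figure D2:**
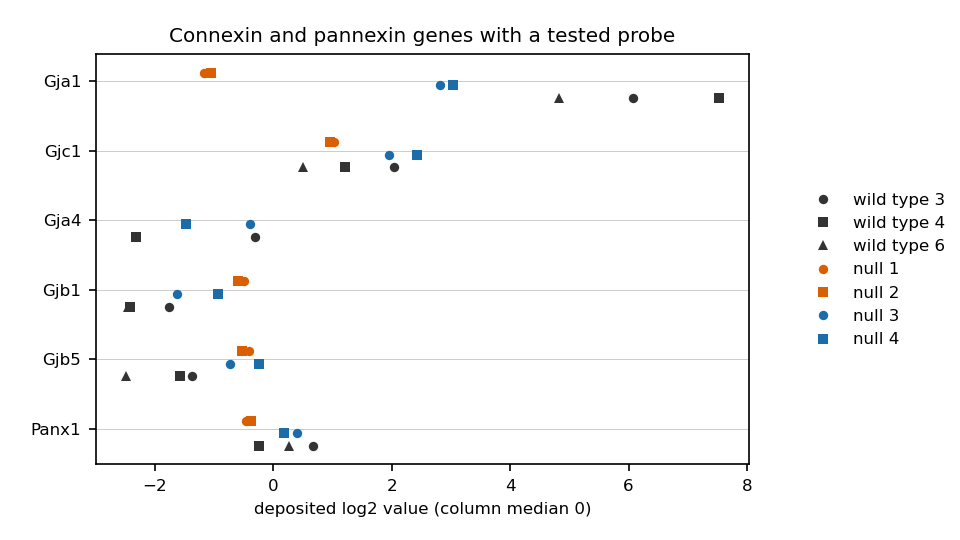
Deposited log2 values (horizontal axis) of the 6 connexin and pannexin genes with a tested probe, 1 point per sample; black points are wild type, orange null 1 and 2, blue null 3 and 4. Gja1 separates the groups widely (4.82 to 7.53 in wild type, -1.17 to 3.03 in null), while Gjc1 and Panx1 overlap.

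Across all probes, none was called in the 7-sample fit at an adjusted p of 0.05 (limma with Benjamini-Hochberg adjustment, smallest adjusted p 0.515; percent called 0). At an unadjusted p of 0.05, 758 probes were higher in null (3.62%) and 498 lower (2.38%), together 1256 of 20950 (6%). With consecutive replicates as a random block, none was called and 393 were at an unadjusted p of 0.05 (1.88%). Without a model, 574 of the 15452 probes measured in all 7 samples had all 4 null values above the wild-type values (3.71%) and 692 had all 4 below (4.48%), 1266 together (8.19%). With 1 probe per gene, 294 of 8346 genes were higher without overlap (3.52%) and 413 lower (4.95%). The 2 null pairs share these wild-type samples as controls and are given side by side. Of 15885 probes measured in null 1, null 2 and wild type, null 1 and 2 lay without overlap above wild type in 1843 and below it in 7134 (56.5% together), a count added after the data were seen. Of 18315 probes measured in null 3, null 4 and wild type, null 3 and 4 lay above in 4486 and below in 1368 (32% together). With 2 null samples in place of 4, values separate more easily by order alone. The shares of the single pairs are therefore not comparable with 8.19%.

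The fit with the replicate-set term called 618 of 20661 probes (2.99%), 410 higher (1.98%) and 208 lower (1.01%) in null 3 and 4. The spread in that fit comes from the difference between members of a pair and from the wild-type samples. The median change of all tested probes was -0.07 in the 7-sample fit and 0.33 with the set term, so a single change in either fit is read against that shift. The call count moved widely: 131 probes with the 4 siRNA samples of the series added to the same model, and 3 when consecutive replicates were also a random block in that larger model. It was 66 without null 3, 78 without null 4, 32 without wild type 3, 331 without wild type 4 and 1868 without wild type 6.

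The 12 lower genes with the smallest p included cell surface, matrix, RNA-binding and cell cycle proteins. They were taken from the 7-sample fit among probes with a value in null 3 and 4 whose groups do not overlap; since the choice used that contrast, their separation is a description. Hdgfl2, a member of the HDGF family of chromatin readers, read 2.39, 2.89 and 2.47 in wild type and -0.76, -0.47, -0.36 and -0.91 in null. Its fitted difference was -3.20 ± 0.46 (9.20-fold), with an unadjusted p of 8.81e-05 and an adjusted p of 0.515 in limma. Sdc2, the heparan sulfate proteoglycan syndecan-2 of the cell surface, read 3.56, 3.45 and 3.07 in wild type and 0.70, 0.70, 0.28 and 0.24 in null, a difference of -2.90 ± 0.46. In both genes the 4 null values lay closer to one another than to any wild-type value.

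Zfp36l1, an RNA-binding protein that speeds the decay of AU-rich messages, read 2.92, 2.49 and 2.39 in wild type and -0.40, -0.01, -0.07 and -1.32 in null (-3.12 ± 0.50). Fbln2, the matrix glycoprotein fibulin-2, read 2.23, 1.29 and 0.90 in wild type and -2.17, -2.58, -0.91 and -1.39 in null (-3.36 ± 0.56). Acp1, a small tyrosine phosphatase, read 4.69, 4.32 and 4.79 in wild type and 1.83, 2.08, 0.91 and 2.24 in null (-2.76 ± 0.50). Plscr3, a scramblase of mitochondrial lipids, read 1.70, 2.07 and 1.44 in wild type and -1.07, -0.62, -1.81 and -2.74 in null (-3.32 ± 0.62). In each of these the null samples of both pairs lay below all wild-type samples.

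Hif1a, the oxygen-regulated subunit of hypoxia-inducible factor, read 2.79, 1.98 and 2.84 in wild type and 0.77, 0.31, 0.15 and -0.53 in null (-2.45 ± 0.50). Tmem106b, a lysosomal membrane protein, read 2.10, 0.85 and 1.18 in wild type and -1.18, -1.32, -0.65 and -0.92 in null (-2.48 ± 0.48). Ktn1, the kinesin-binding protein kinectin, read 3.91, 2.93 and 4.04 in wild type and 1.10, 1.01, 1.90 and 0.06 in null (-2.73 ± 0.54). Dip2c read 2.52, 1.18 and 0.72 in wild type and -1.16, -1.22, -0.06 and -1.07 in null (-2.51 ± 0.52), with null 3 apart from the other null samples.

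The other 2 of the 12 had no value in null 1 or 2. Cdkn1a, the cyclin-dependent kinase inhibitor p21, read 5.15, 4.60 and 4.95 in wild type and 1.18 and 0.69 in null 3 and 4 (-4.03 ± 0.60, 16.4-fold). Snrnp70, a protein of the U1 spliceosomal particle, read 5.30, 4.43 and 4.31 in wild type and -0.61 and 0.59 in null 3 and 4 (-4.69 ± 0.72). A second Snrnp70 probe read 1.73, 0.60 and 0.11 in wild type, -0.15 and -0.39 in null 1 and 2, and 2.14 and 2.34 in null 3 and 4, so its null pairs lay on opposite sides of wild type.

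Among the 12 higher genes, Cnga1, a subunit of the cyclic nucleotide-gated channel of rod photoreceptors, had the smallest p. It read -1.08, -1.997 and -1.75 in wild type and 2.42, 2.32, 1.22 and 1.65 in null, a difference of 3.48 ± 0.53 (11.1-fold) with an unadjusted p of 0.000139 and an adjusted p of 0.515 (limma). Abca1, which exports cholesterol from cells, read -0.20, 0.90 and 0.84 in wild type and 2.61, 2.42, 2.71 and 2.98 in null (2.24 ± 0.48). Ahcyl1, also known as IRBIT, which binds the IP3 receptor, read 0.83, 0.23 and 0.40 in wild type and 2.34, 2.15, 3.32 and 2.64 in null (2.05 ± 0.48). In all 3 genes both null pairs lay above all wild-type samples.

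Klf5, a Krüppel-like transcription factor, read 2.76, 1.95 and 1.76 in wild type and 4.49, 4.55, 4.15 and 4.01 in null (2.08 ± 0.47). Exosc10, a nuclease of the nuclear RNA exosome, read -0.51, -0.95 and -0.29 in wild type and 1.66, 1.97, 1.27 and 1.38 in null (2.17 ± 0.47). Eif2s3y, the Y-linked subunit of translation factor eIF2, read -0.61, -0.68 and -0.95 in wild type and 1.03, 1.20, 1.21 and 1.32 in null (1.94 ± 0.44). Pnma1 had the widest null spread of these genes, with -2.18, -2.72 and -2.24 in wild type and 0.43, 0.79, -1.12 and -0.37 in null (2.35 ± 0.59).

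The other 5 of the 12 had no value in null 1 or 2 and were low in wild type. Itch, a ubiquitin ligase, read -1.86, -1.70 and -1.78 in wild type and 1.37 and 1.43 in null 3 and 4 (3.20 ± 0.59). Ttf1, which ends transcription by RNA polymerase I, read -1.18, -1.65 and -1.11 in wild type and 1.71 and 1.66 in null 3 and 4 (2.97 ± 0.61). The olfactory receptor gene Olfr281 (3.61 ± 0.62), the ubiquitin ligase gene Rffl (3.12 ± 0.63) and Col9a3, a chain of collagen IX (2.72 ± 0.59), had wild-type values of -3.60 to -2.59 and null 3 and 4 values of -0.49 to 0.56.

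**Figure D3:**
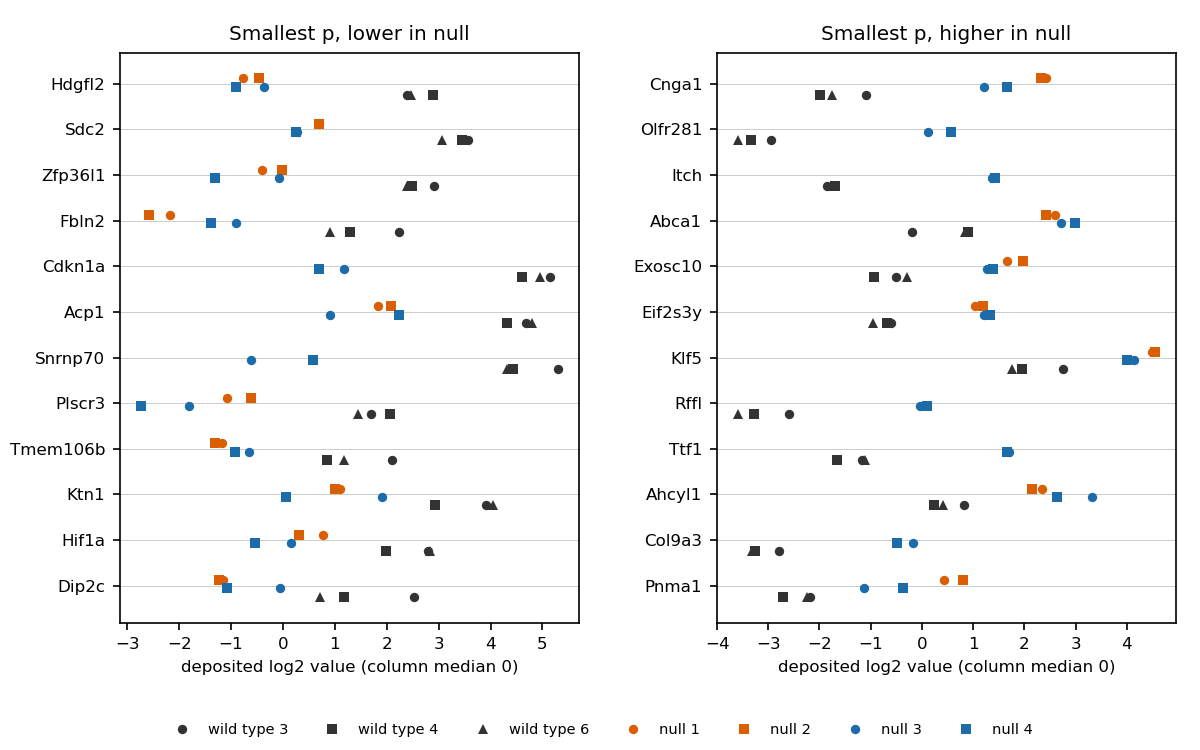
Deposited log2 values (horizontal axis) of the 12 lower (left) and 12 higher (right) genes with the smallest p in the 7-sample fit, 1 point per sample; black is wild type, orange null 1 and 2, blue null 3 and 4. The genes were chosen for groups that do not overlap, and 2 of the lower and 5 of the higher genes have no orange points because null 1 and 2 had no value there.

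Of these 24 genes, 21 were called in the fit with the replicate-set term and Exosc10 (adjusted p 0.0502), Klf5 (0.0581) and Pnma1 (0.0886) were not. Both fits share the wild-type samples and null 3 and 4, and for the 7 genes without null 1 and 2 values they give the same estimate, so this count is no separate support. Other probes of the same genes often read differently. In 12 of the 24 genes there were 16 further tested probes, of which 10 had the same sign and 1, for Col9a3, was at an unadjusted p of 0.05. Of the other 2 Abca1 probes, 1 was lower in all null samples, at -0.76, -1.32 and -0.17 in wild type and -1.81, -2.04, -1.67 and -1.60 in null, and 1 overlapped. The second Eif2s3y probe differed by 0.04 and the second Klf5 probe by -0.01 in the fit. A second Zfp36l1 probe differed by 0.23, and the second Tmem106b probe by -1.65.

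Promoter windows were available for 20 of the 24 genes. The AP-1 letters of the Gja1 window were in none of the 20 (4.46% of all windows), TATAAA was in 3, GGGCGG in 10 and CCAAT in 6. Windows of 250 bases before the start are shown for 2 genes that were low and 1 that was high in both null pairs: Zfp36l1 (chr12:80113014-80113263, minus strand), Fbln2 (chr6:91212514-91212763, plus strand) and Abca1 (chr4:53159896-53160145, minus strand), each 5′ to 3′ with the same 4 motifs in capitals.
Zfp36l1: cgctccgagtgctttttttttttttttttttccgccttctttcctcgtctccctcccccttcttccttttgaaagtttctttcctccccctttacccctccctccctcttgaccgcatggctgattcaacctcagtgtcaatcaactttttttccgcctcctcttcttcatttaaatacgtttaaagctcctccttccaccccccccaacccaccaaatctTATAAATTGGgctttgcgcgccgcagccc
Fbln2: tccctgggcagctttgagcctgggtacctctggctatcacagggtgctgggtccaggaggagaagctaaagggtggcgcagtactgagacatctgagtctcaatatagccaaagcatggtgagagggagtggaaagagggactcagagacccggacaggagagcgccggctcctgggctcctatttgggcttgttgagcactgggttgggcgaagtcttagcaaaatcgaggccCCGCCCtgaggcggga
Abca1: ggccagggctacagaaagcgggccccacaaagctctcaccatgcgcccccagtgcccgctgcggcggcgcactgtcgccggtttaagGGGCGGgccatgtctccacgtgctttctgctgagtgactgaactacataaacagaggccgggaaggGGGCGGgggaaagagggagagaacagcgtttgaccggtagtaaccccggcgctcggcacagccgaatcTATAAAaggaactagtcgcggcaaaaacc
Zfp36l1 holds a TATA box that shares a base with a CCAAT box of the opposite strand, Fbln2 holds a GC box of the opposite strand, and Abca1 holds a TATA box and 2 GC boxes.

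In the fit with the replicate-set term, the 8 lower genes named for the largest change read lower in null 3 and 4 than in null 1 and 2 wherever both were measured. They were chosen by that contrast, so their changes are a description. Phf14, a chromatin protein, read 4.64, 4.01 and 3.82 in wild type, 1.55 and 1.26 in null 1 and 2, and -2.46 and -2.37 in null 3 and 4, a change of -6.63 ± 0.49 with an adjusted p of 1.89e-05 (limma). Gem, a small GTP-binding protein, read 2.97, 3.45 and 3.23 in wild type, 0.62 and 0.47 in null 1 and 2, and -2.83 and -2.79 in null 3 and 4 (-6.002 ± 0.48). Atp6v1c1, a subunit of the vacuolar proton pump, read 4.29, 3.88 and 4.36 in wild type, 3.57 and 3.65 in null 1 and 2, and -1.45 and -2.34 in null 3 and 4 (-6.12 ± 0.50). Its second probe read 2.84, 2.97 and 3.67 in wild type, 2.30 and 2.42 in null 1 and 2, and 3.25 and 3.41 in null 3 and 4. Phf14 had 2 other probes, both without values in null 1 and 2: 1 read 0.15, -0.38 and -0.36 in wild type and 1.04 and 0.69 in null 3 and 4, and the other differed by -0.01 with the set term.

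Dek, a chromatin protein, read 4.41, 3.44 and 3.85 in wild type, 2.61 and 2.45 in null 1 and 2, and -1.01 and -3.02 in null 3 and 4 (-6.08). Stat4, a cytokine-signalling transcription factor, read 2.92, 2.70 and 1.92 in wild type, 1.61 and 1.81 in null 1 and 2, and -3.18 and -2.55 in null 3 and 4 (-5.38). Ak3, adenylate kinase 3 (-7.47), and Eif3k, a subunit of translation factor eIF3 (-6.42), had no value in null 3, so their changes rest on null 4 alone, at -2.58 and -0.98. Pomp, which helps assemble the proteasome, read 5.34, 5.71 and 5.51 in wild type, 5.10 and 5.16 in null 1 and 2, and -2.53 and 2.15 in null 3 and 4 (-5.46). The second Eif3k probe read 5.25, 4.68 and 4.64 in wild type, 3.80 and 4.14 in null 1 and 2, and 5.29 and 5.90 in null 3 and 4. The low reading of null 3 and 4 was not shared by the other probes of Phf14, Atp6v1c1 or Eif3k. Over the 16 genes named for this fit, 6 had 9 other probes, of which 6 had the same sign and 1 was called.

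Of the 8 higher genes, Olfr281, Itch and Rffl are described above. Slmap, a membrane protein of cardiac muscle also present in other cells, read -0.05, 0.43 and -1.12 in wild type, 1.67 and 1.41 in null 1 and 2, and 2.74 and 3.13 in null 3 and 4 (3.17 ± 0.55, adjusted p 0.00778). A second Slmap probe was called in the same direction in null 3 and 4 (2.40 and 1.75, against -0.12, 0.24 and -0.69 in wild type) but read -3.46 and -2.47 in null 1 and 2. Eif3b, a core subunit of translation factor eIF3, read 1.87, -0.21 and 3.22 in wild type, 3.59 and 3.72 in null 1 and 2, and 5.22 and 4.57 in null 3 and 4 (3.22 ± 0.76). Slc13a1 (3.48), Guca1b (3.33) and Tmeff1 (3.17) were near the bottom of the range in wild type, at -3.74 to -1.67, and stood at -0.42 to 1.47 in null 3 and 4. Guca1b read -2.87 and -3.19 in null 1 and 2, close to wild type (-3.29 and -3.74 in wild type 4 and 6), and the other 2 had no value there.

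Rpl5, a protein of the large ribosomal subunit named after its values were seen, shows how far a single probe can depart from its gene, since 17 probes carry its name and all had 7 values. One of them read 4.94, 6.44 and 6.08 in wild type, 5.26 and 5.02 in null 1 and 2, and -1.42 and -1.04 in null 3 and 4, a change of -6.96 with an adjusted p of 1.89e-05 in the fit with the set term (limma). In null 3 the other 16 probes read 2.40 to 5.96, and in null 4 they read 4.71 to 7.67. Their changes were -2.75 to 0.55 with a median of -0.26, and 2 of the 16 were called. Over all genes other than Rpl5 with another tested probe, 150 called probes could be checked. In 94 (62.7%) the gene's other probes moved mostly the same way, and in 12 (8%) another probe was also called. For the 246 such probes at an unadjusted p of 0.05 in the 7-sample fit, the counts were 143 (58.1%) and 25 (10.2%). The shares were not computed for uncalled probes. Agreement beyond the shift of all probes (median 0.33 with the set term) therefore cannot be read from them.

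**Figure D4:**
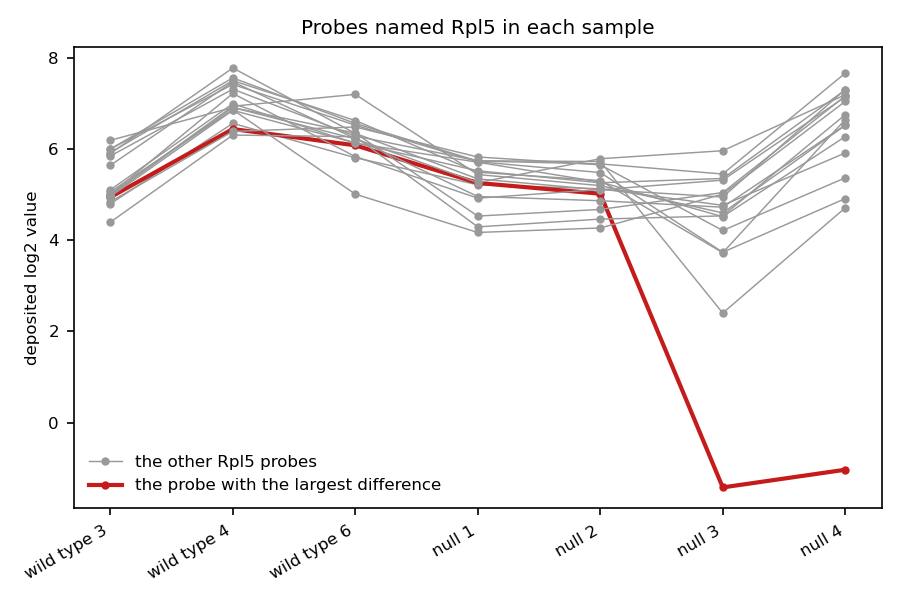
Deposited log2 values (vertical axis) of the 17 probes named Rpl5 in each of the 7 samples (horizontal axis); each line is 1 probe. The red probe drops to -1.42 and -1.04 in null 3 and 4, where the 16 grey probes stay between 2.40 and 7.67.

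Genes with several complete probes gave a measure that rests on more than 1 spot. This comparison of probe means was added after the data were seen and covered 1206 genes. Of these, 30 were higher and 39 lower in all 4 null samples (5.72% together, against 8.19% of all complete probes), so separation was no more common here than elsewhere; limma called none with the 7-sample design, 45 at an unadjusted p of 0.05, and 97 with the replicate-set term. Aqp4, the water channel of astrocyte endfeet, averaged 5.33, 5.36 and 4.88 in wild type and 4.02, 3.73, 3.84 and 3.74 in null over 2 complete probes, a difference of -1.39 ± 0.38 with an unadjusted p of 0.006. All 4 null samples lay below the lowest wild-type sample, and the 2 null pairs read alike. Another Aqp4 probe was dim, with -1.04, -1.88 and -3.31 in wild type, -3.54 and -3.07 in null 1 and 2 and no value in null 3 and 4.

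The genes below were picked for means that do not overlap and are a description. Those with lower means were Glrx3, a glutaredoxin that handles iron-sulfur clusters, and Spin1, a histone reader. Glrx3 averaged 5.87, 5.71 and 5.79 in wild type and 4.16, 4.13, 4.37 and 4.97 in null. Spin1 averaged 1.52, 1.58 and 2.47 in wild type and 0.46, 0.56, 0.32 and -0.07 in null. Those with higher means were Gpr137b, a lysosomal membrane protein, with 0.82, 0.76 and 0.58 in wild type and 1.95, 1.72, 1.86 and 2.14 in null, and Ppp1cc, a catalytic subunit of protein phosphatase 1, with 3.21, 3.01 and 2.74 in wild type and 3.95, 3.83, 4.29 and 4.17 in null. The brain spectrin gene Sptbn1 averaged 3.29, 3.09 and 2.70 in wild type and 4.12, 4.18, 3.76 and 4.25 in null. Read singly, both Gpr137b probes separated the groups. For Glrx3, Spin1, Ppp1cc and Sptbn1, 1 probe did and the other overlapped, so their separation was not shared by both probes.

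Gene groups were read from 36 lists, each gene through 1 probe. In the 7-sample fit no list held an adjusted call. Over all 10214 genes, 268 were higher (2.62%) and 271 lower (2.65%) at an unadjusted p of 0.05, and the median change was -0.14. The median difference from wild type was -0.54 for null 1 and 2 and 0.29 for null 3 and 4, and list medians are set beside these. In 32 of the 36 lists the median of null 1 and 2 lay below 0, and in 27 the median of null 3 and 4 lay above it.

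**Figure D5:**
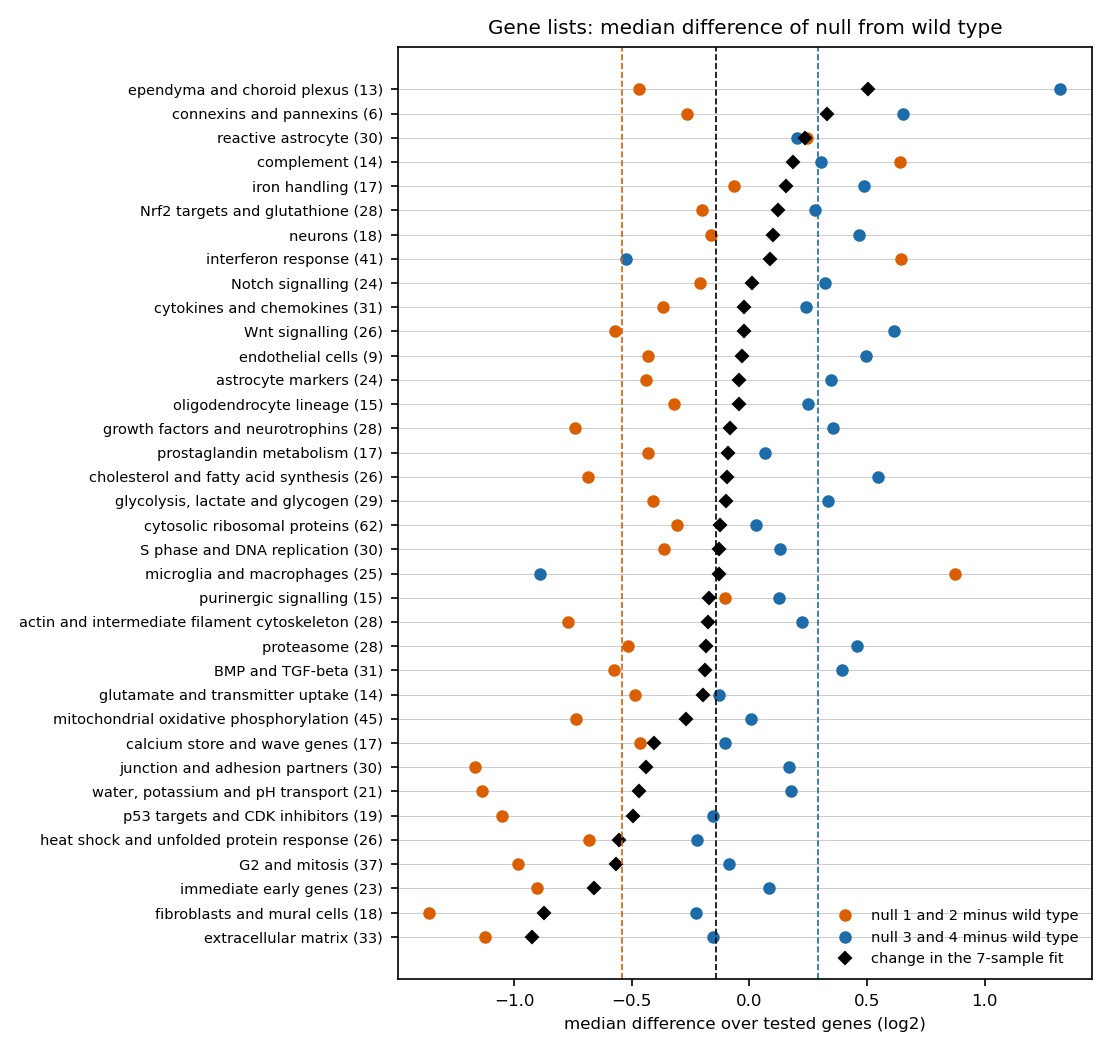
Median difference of null from wild type (log2, horizontal axis) over the tested genes of each of the 36 lists (number tested in brackets); black diamonds are the 7-sample fit, orange circles null 1 and 2, blue circles null 3 and 4, and dashed lines the medians of all genes. Extracellular matrix and fibroblast lists lie lowest at -0.92 and -0.87, and the microglia list has null 1 and 2 above 0 (0.88) and null 3 and 4 below it (-0.89), the reverse of all genes.

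The extracellular matrix list lay lowest, with a median of -0.92 over 33 tested genes (-1.12 in null 1 and 2, -0.15 in null 3 and 4). Of these, 7 were lower and 2 higher at an unadjusted p of 0.05. Lox, the enzyme that crosslinks collagen and elastin, read 5.17, 4.05 and 5.14 in wild type, -2.78 and -2.78 in null 1 and 2, and 2.17 and 0.90 in null 3 and 4. Its difference was -5.51 ± 1.26 in the 7-sample fit (unadjusted p 0.00206, adjusted p 0.761), and with the set term it was -3.35 ± 0.53 (adjusted p 0.00442, limma). As with Gja1, null 1 and 2 were lowest and null 3 and 4 lay between them and wild type.

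Col3a1 and Col1a2, chains of fibrillar collagens, overlapped between the groups. Col3a1 read 5.39, 3.23 and 1.63 in wild type and 2.03 and -0.33 in null 3 and 4, with no value in null 1 and 2 (-3.02 ± 0.73). Col1a2 read 4.40, 4.43 and 1.46 in wild type and -0.87, -1.10, 1.95 and 1.67 in null (-3.14 ± 1.05), so wild type 6 lay within the null range. The next 4 genes are further members at an unadjusted p of 0.05, named after their values were seen. Tnc, the matrix protein tenascin-C, read 3.99, 4.54 and 5.63 in wild type and 2.42, 2.01, 3.05 and 3.93 in null. Fn1, fibronectin, read 5.89, 6.02 and 6.74 in wild type and 5.19, 5.65, 4.53 and 4.22 in null. Tnc and Fn1 were below wild type in all null samples, and Lama4 (1.86 ± 0.68), a laminin chain, and Timp2 (1.50 ± 0.59), a protease inhibitor, both without values in null 1 and 2, lay above it in null 3 and 4.

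Markers of fibroblasts and mural cells share several of these genes and were lower as a list, with a median of -0.87 over 18 tested genes and 5 lower, none higher, at an unadjusted p of 0.05. The mean of the 12 markers measured in all samples was 0.84 to 2.20 in wild type, -0.46 and -0.33 in null 1 and 2, and 0.94 to 1.48 in null 3 and 4. In bulk samples fewer cells of a type and less RNA per cell cannot be told apart, and the part of such cells in the matrix genes was not tested. Of markers named after their values were seen, Acta2, the smooth muscle actin, overlapped between the groups (6.60 and 7.97 in wild type 3 and 4, 6.83, 8.14, 6.44 and 7.02 in null), as did Pdgfra.

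Markers of astrocytes were present in both groups. Glul, glutamine synthetase, read 6.56, 6.60 and 7.04 in wild type and 6.71, 7.34, 6.39 and 8.06 in null. Among markers named after their values were seen, Clu, clusterin, read 5.33 to 7.30 in wild type and 5.90 to 7.48 in null, and Mlc1, an astrocyte membrane protein, read 4.80 to 6.46 and 4.32 to 6.44. The defining filament gene Gfap had no value in any of the 7 samples, Slc1a3, the glutamate transporter GLAST, had values in null 1 and 2 alone (4.54 and 4.35), and Slc1a2, the transporter GLT-1, read -2.74 to -0.06 in wild type and -1.69 to -0.26 in null. Of 24 astrocyte markers tested, only Aqp4 was at an unadjusted p of 0.05, at 6.46, 5.70 and 5.63 in wild type and 4.79, 4.29, 5.17 and 4.75 in null on the brightest probe (-1.28 ± 0.45, 2.43-fold). The list's median was -0.04, against -0.14 for all genes.

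Among genes of the immature and filament type, Vim, vimentin, read 5.16 and 7.49 in wild type 3 and 4 and 8.21, 5.44 and 7.94 in null 2, 3 and 4. Nes, nestin, read 5.20, 6.03 and 4.90 in wild type, 3.75 and 3.63 in null 1 and 2, and 5.15 and 5.83 in null 3 and 4. S100b read 0.68, -1.09 and 0.06 in wild type and 0.00 and -1.33 in null 3 and 4. Fgfr3, a growth factor receptor of astrocytes, lay above wild type (1.42, 0.80 and 0.99) in all null samples (1.93, 1.87, 2.16 and 2.35), and Sparcl1, a secreted synapse-promoting protein, below it (2.90, 2.48 and 2.53 against 1.40, 1.38, 2.14 and 1.80). Neither reached an unadjusted p of 0.05.

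Genes of water, potassium and pH transport had a median of -0.47 over 21 tested genes, 3 lower and 1 higher at an unadjusted p of 0.05. Besides Aqp4, Atp1b1, a subunit of the sodium pump, read 4.43, 3.43 and 3.49 in wild type and 2.49, 2.56, 2.77 and 1.33 in null (-1.63 ± 0.50). Sgcb, a sarcoglycan of the dystrophin complex that anchors proteins at the endfoot, read 4.57, 3.61 and 3.64 in wild type and -0.27 and 0.73 in null 3 and 4 (-3.73 ± 0.70), with no value in null 1 and 2. A further Sgcb probe had values in all 4 null samples and none in wild type, so it could not be compared between the groups.

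Partners of Cx43 in junctions, adhesion and the cytoskeleton had a median of -0.44 over 30 tested genes (-1.17 in null 1 and 2, 0.17 in null 3 and 4), 3 lower and none higher at an unadjusted p of 0.05. Zyx, the focal adhesion protein zyxin, read 3.59, 3.65 and 3.54 in wild type and 0.68, 1.11, 2.54 and 3.13 in null (-1.67 ± 0.68). Itgb1, the integrin beta-1 chain, read 5.26, 6.47 and 6.09 in wild type and 2.64, 2.60, 3.33 and 5.92 in null (-2.12 ± 0.78), so null 4 overlapped wild type. Cav2, caveolin-2, read 4.51, 4.52 and 4.95 in wild type and 3.10 and 2.40 in null 1 and 2 and had no value in null 3 and 4 (-1.94 ± 0.63).

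The binding partners of Cx43 best known by name overlapped between the groups. Tjp1, the scaffold ZO-1 that binds the Cx43 tail, read 0.76, -0.16 and 1.27 in wild type, -2.65 and -2.33 in null 1 and 2, and 2.63 and 0.94 in null 3 and 4. Cdh2, N-cadherin, read 5.98, 6.24 and 6.07 in wild type and 5.44, 5.34, 6.22 and 6.31 in null. Src, a kinase that phosphorylates Cx43, read -0.13, -0.30 and -0.29 in wild type and -1.15, -1.13, 0.12 and 0.36 in null. Ccn3, formerly Nov, a secreted growth regulator that binds Cx43, read 2.97, 2.12 and 2.26 in wild type and 2.01, 1.66, 3.76 and 3.57 in null. In all 4, null 1 and 2 lay below and at least 1 of null 3 and 4 above every wild-type sample.

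Few genes of calcium waves and purinergic signalling were at an unadjusted p of 0.05. Of 15 tested purinergic genes none was at an unadjusted p of 0.05; P2ry1, an ADP receptor of astrocyte calcium waves, read 1.36, 1.55 and 1.77 in wild type and -0.35, -0.50, 1.45 and 0.99 in null, and P2rx7, an ATP-gated channel, read -2.12, -1.58 and -1.07 in wild type and -1.26, -1.02 and -2.07 in null 1, 2 and 4. Of 17 calcium store genes 1 was higher and 1 lower, and their median was -0.41, against -0.14 for all genes. Itpr2, a calcium store gene, averaged 0.20, -0.77 and -0.26 in wild type over 3 complete probes. Its means in null were -1.76, -1.37, -0.82 and -1.12, below all wild-type means (-1.03 ± 0.44, unadjusted p 0.0453, limma). Read singly, 1 of the 3 probes separated the groups. The other 2 overlapped, among them the probe used for the list (-1.46 ± 0.77). A further Itpr2 probe, with no value in null 4, overlapped too. Gnaq, the G protein that activates phospholipase C, read -1.15, -1.48 and -0.94 in wild type and -0.43, -0.45, -0.03 and 0.70 in null (1.17 ± 0.50). Its relative Gna11 had no value in null 1 and 2 and read 2.79, 2.40 and 3.70 in wild type and 1.24 and 1.30 in null 3 and 4 (-1.66 ± 0.68). In glutamate handling, Glud1, glutamate dehydrogenase, read 4.46, 4.42 and 4.40 in wild type, 3.43 and 3.30 in null 1 and 2, and 0.53 and -0.18 in null 3 and 4 (-2.70 ± 0.96; -4.30 ± 0.48 and adjusted p 0.000319 with the set term, limma).

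Cell cycle genes of G2 and mitosis had a median of -0.56 over 37 tested genes (-0.98 in null 1 and 2, -0.09 in null 3 and 4), 3 lower and none higher at an unadjusted p of 0.05. Cks2, a cyclin-dependent kinase subunit, read 4.09, 4.51 and 4.18 in wild type and 2.47, 2.47, 3.20 and 3.03 in null (-1.45 ± 0.47); its second probe overlapped. Cdc25c, the phosphatase that starts mitosis, read -0.51, -0.24 and -0.95 in wild type and -2.22, -2.07, -1.21 and -1.63 in null (-1.23 ± 0.50). Bub1, a spindle checkpoint kinase, read 1.70, 1.51 and 1.12 in wild type and -0.92, -1.37, 1.20 and 0.48 in null (-1.68 ± 0.69). Genes of S phase had a median of -0.13 over 30, near that of all genes, with 1 higher, Cdc6, a factor that loads the replicative helicase, which had no value in null 1 and 2 and read -0.82, -0.49 and -1.16 in wild type and 0.70 and 1.08 in null 3 and 4.

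Of 19 tested p53 targets and kinase inhibitors, 2 were lower at an unadjusted p of 0.05: Cdkn1a, given above, and Plk2, a polo-like kinase, at 2.08, 1.17 and 2.37 in wild type and -0.40, -0.09, 0.93 and 0.90 in null (-1.54 ± 0.58). Immediate early genes had a median of -0.66 over 23. Ccn1, a matrix-bound growth regulator, read 6.03, 6.03 and 5.66 in wild type and 3.45, 3.57, 3.81 and 5.10 in null (-1.86 ± 0.55). Zfp36, the relative of Zfp36l1 also called tristetraprolin, read 2.19, 1.62 and 1.64 in wild type and -0.06, 0.33, 1.05 and 0.24 in null (-1.49 ± 0.48), and Nr4a2, a nuclear receptor, read -1.99, -1.53 and -1.43 in wild type and -0.43, -0.59, -0.45 and -0.21 in null (1.26 ± 0.45). In Ccn1, Zfp36 and Nr4a2 the groups did not overlap.

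In redox genes, Txnrd1, thioredoxin reductase of the cytosol, read 5.02, 4.77 and 6.14 in wild type and 2.47, 2.74, 3.41 and 1.78 in null (-2.75 ± 0.59; adjusted p 0.761, and 0.0273 with the set term, limma). Nfe2l2, which encodes the transcription factor Nrf2 that drives such genes, read 1.70, 1.53 and 2.65 in wild type and 3.42, 3.45, 3.25 and 3.23 in null (1.41 ± 0.49). Prdx1, a peroxiredoxin, read 1.07, -0.72 and 7.25 in wild type and 6.30, 6.32, 7.73 and 8.21 in null, so the wild-type samples themselves spanned most of the range. The list as a whole had 2 higher and 1 lower of 28 and a median of 0.12.

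In lipid synthesis, Lss, lanosterol synthase of the cholesterol pathway, read -0.34, -0.50 and 0.20 in wild type and 1.29, 1.46, 1.18 and 1.49 in null (1.60 ± 0.45). Scd1, stearoyl-CoA desaturase, read 5.31, 4.61 and 5.39 in wild type and 3.35, 3.09, 3.95 and 3.93 in null (-1.56 ± 0.50). With Abca1, which was listed here too, 2 of 26 genes were higher and 2 lower, and the list's median was -0.09. None of 29 genes of glycolysis, lactate and glycogen was at an unadjusted p of 0.05.

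In developmental signalling, Smad6, an inhibitor of BMP signalling, read 1.54, 1.33 and 1.79 in wild type and -0.06, -0.31, -1.28 and -2.05 in null (-2.53 ± 0.60; adjusted p 0.767, and 0.00319 with the set term, limma). Id2, a BMP target, was higher, with 5.44, 4.49 and 4.55 in wild type and 5.97, 6.23, 5.96 and 6.30 in null (1.26 ± 0.48). Sox2, a factor of neural stem cells and astrocytes, read 3.89, 3.48 and 4.68 in wild type and 4.85, 4.88, 6.11 and 5.76 in null (1.38 ± 0.57). In the Wnt list 2 of 26 genes were higher at an unadjusted p of 0.05 and none lower. Apc, a brake on beta-catenin, read -2.03, -0.60 and -0.77 in wild type and -0.17, -0.21, 1.18 and 0.90 in null (1.63 ± 0.60). Sfrp1, a secreted Wnt antagonist, read 2.29, 2.10 and 2.52 in wild type and 3.44, 3.92, 3.57 and 2.85 in null (1.13 ± 0.48). The list medians were -0.57 in null 1 and 2 and 0.39 in null 3 and 4 for BMP, -0.57 and 0.61 for Wnt, and -0.21 and 0.32 for Notch, beside -0.54 and 0.29 for all genes.

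In the microglia and interferon lists the 2 null pairs lay in the reverse order to all genes. Markers of microglia and macrophages had a median difference from wild type of 0.88 in null 1 and 2 and -0.89 in null 3 and 4 over 25 tested genes, against -0.54 and 0.29 for all genes. The mean of the 22 markers measured in all samples was 2.70 to 3.48 in wild type, 3.79 and 3.99 in null 1 and 2, and 1.78 and 2.55 in null 3 and 4. Ly86, C1qc and Lcp1 were the markers called lower in the fit with the set term (3 of 24 tested, none higher, against 1.11% of all genes lower and 1.33% higher) and are named after their values were seen. Ly86, a surface protein of myeloid cells, read 4.52, 4.82 and 4.11 in wild type, 5.67 and 5.49 in null 1 and 2, and 1.04 and 2.73 in null 3 and 4. C1qc, a chain of complement C1q made by microglia, read 5.76, 5.81 and 5.92 in wild type, 6.43 and 6.86 in null 1 and 2, and 3.79 and 3.98 in null 3 and 4. Lcp1, an actin-bundling protein of blood cells, read 2.72, 2.68 and 2.74 in wild type, 3.85 and 3.62 in null 1 and 2, and -1.73 and -0.24 in null 3 and 4. Fcgr1, an antibody receptor of macrophages, read 0.29, -0.06 and 0.89 in wild type and 4.08 and 4.33 in null 1 and 2 (3.86 ± 0.64), with no value in null 3 and 4. Not all markers had this order: Cd83, a surface protein of activated immune cells, read 0.22, -0.31 and -1.43 in wild type and -2.95, -3.07, -2.02 and -0.83 in null (-1.73 ± 0.72), and Itgam, the integrin CD11b, overlapped at -1.99, -0.49 and -1.25 in wild type and -0.53, -0.45, -1.56 and -0.06 in null.

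Interferon response genes had medians of 0.65 in null 1 and 2 and -0.53 in null 3 and 4 over 41 tested genes; their mean over the 36 measured in all samples was 0.67 to 1.69 in wild type, 1.88 and 1.97 in null 1 and 2, and 0.74 and 0.76 in null 3 and 4, within the wild-type range. At an unadjusted p of 0.05, 3 of the 41 were higher and 2 lower. With the set term 1 of 40 was called, Mx1, an antiviral GTPase, which was higher (2.77, adjusted p 0.048, limma) on 0.71 and -3.73 in wild type 3 and 6 against 2.13 and 0.39 in null 3 and 4. Irgm1, an interferon-induced GTPase, was lower in all null samples (2.64, 3.02 and 3.45 against 1.19, 0.97, 1.81 and 2.26; -1.43 ± 0.52). Of 31 cytokine and chemokine genes (median -0.37 in null 1 and 2, 0.24 in null 3 and 4), 2 were higher and 1 lower. Il11, an interleukin, read -2.70 and -3.85 in wild type 3 and 6 and -0.38 and -0.93 in null 3 and 4 (2.62 ± 0.71; adjusted p 0.031 with the set term, limma). Tnfaip3, a brake on NF-kappaB, read -0.40, -3.43 and -3.17 in wild type and -0.01, 0.19, -0.23 and -1.43 in null (1.72 ± 0.67). Tlr2, a receptor for bacterial lipoproteins, read 3.13, 3.57 and 2.76 in wild type and 1.60, 1.79, 1.26 and 2.10 in null (-1.42 ± 0.47). Complement genes had medians of 0.64 and 0.31. In the reactive astrocyte list 1 of 30 genes was at an unadjusted p of 0.05, Lcn2, a secreted carrier of siderophores, with 0.75, 0.94 and 1.88 in wild type and 3.58, 3.53, 1.69 and 2.46 in null (1.70 ± 0.62). Its second probe lay above wild type in all null samples (-0.14, -0.02 and 1.75 against 4.20, 4.33, 1.76 and 2.38). Levels of microglial and interferon genes moved with the null pairs, and their part in other differences between the pairs was not tested.

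Markers of neurons, the oligodendrocyte lineage and endothelial cells did not separate the groups as lists. The mean over the markers measured in all samples was 0.06 to 0.65 in wild type and 0.15 to 0.78 in null for neurons, 0.91 to 1.85 and 0.73 to 1.67 for the oligodendrocyte lineage, and -0.84 to 0.78 and -0.62 to 0.70 for endothelial cells. Tubb3, the neuronal tubulin, was the only neuronal marker of 18 at an unadjusted p of 0.05, with 1.06, 1.43 and 1.36 in wild type and -0.95, -0.46, -0.10 and 0.12 in null (-1.57 ± 0.47). Ependymal and choroid plexus markers averaged -0.78 to 0.81 in wild type, -0.46 in both null 1 and 2, and 1.18 and 1.27 in null 3 and 4. Their list had the highest 7-sample median of the 36, 0.50 over 13 tested genes (-0.47 in null 1 and 2, 1.32 in null 3 and 4). With the set term 2 of 13 were called higher and none lower, against 1.33% and 1.11% of all genes. Tekt4, 1 of these, read -2.365, -2.41 and -3.86 in wild type and -0.70 and 0.25 in null 3 and 4. It had no value in null 1 and 2 (2.65 ± 0.61 with the set term, adjusted p 0.0363, limma). Aqp1, the water channel of choroid plexus, was higher in all null samples (0.51, -0.14 and -0.94 against 1.60, 1.29, 0.96 and 0.76; 1.25 ± 0.50).

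The large housekeeping complexes were close to the median of all genes. Of 62 cytosolic ribosomal protein genes, 1 was higher and none lower, with a median of -0.12. The higher gene, Rps7, read 4.98, 4.70 and 5.35 in wild type and 6.34, 6.15, 5.97 and 6.04 in null (1.11 ± 0.46). Of 45 genes of mitochondrial oxidative phosphorylation 1 was higher and 2 lower (median -0.27), and of 28 proteasome genes 1 was lower (median -0.19). Psma2, a core subunit, read 4.49, 3.91 and 2.56 in wild type and 2.62, 2.47, 1.94 and 0.18 in null (-2.03 ± 0.68). Of 26 heat shock and unfolded protein response genes 1 was lower, Hsp90b1, the chaperone GRP94 of the endoplasmic reticulum, and the median was -0.56. Hsp90b1 read 5.15, 6.34 and 6.70 in wild type and 4.20, 4.66, 4.25 and 5.51 in null (-1.23 ± 0.47). Of the 26 changes 5 were above 0, against 4298 of 10214 for all genes and 8 of 37 for G2 and mitosis. Hspa5, also on the heat shock list, read 1.64, 0.86 and 5.24 in wild type and 3.78, 3.54, 6.71 and 6.33 in null. Its groups overlapped (2.57 ± 1.24). With the set term Hspa5 was called higher (4.00 ± 0.93, adjusted p 0.0363, limma), and 1 gene of the list was called lower.

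Some probes had values on 1 side alone. Values were present in all 4 null and no wild-type sample for 64 probes (35 with 1 symbol) and in all 3 wild-type and no null sample for 90 (53 with 1 symbol); why values are missing is unknown. Among probes with 1 symbol, the brightest of the first kind was Mrpl42, a mitochondrial ribosomal protein, at 4.64, 4.80, -1.22 and 0.07 in null 1 to 4, a mean of 2.07. The brightest named probe of the second kind was Araf, a RAF kinase, with a mean of 3.43 over the wild-type samples. The next highest named probe of that kind, Srr, stood at -0.60, so among the named probes of this kind Araf alone lay above the median of the array.

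Genes next to Gja1 were taken in RefSeq order. Among the 20 genes of any kind on each side, 5 were tested. At an unadjusted p of 0.05, 1 was higher and none lower, against 2.62% and 2.65% of all genes. The median was -0.35, and with the set term it was 0.44 over 4 tested genes. The median of all genes turned likewise, from -0.14 to 0.23. Among 20 protein-coding genes on each side, a count added after the data were seen, 21 were tested and the same 1 was higher (median -0.22). This gene, Serinc1, which helps place serine into membrane lipids, is the second protein-coding gene from Gja1 on 1 side. It read 2.87, 2.56 and 2.43 in wild type and 4.89, 4.74, 4.33 and 4.02 in null, with no overlap. The fitted difference was 1.83 on the log2 scale, and with the set term it was 1.50 with an adjusted p of 0.10. Hsf2, the heat shock factor gene between them, read 0.95, 0.62 and 0.13 in wild type and 0.85, 0.66, 1.09 and 0.94 in null, and Fabp7, a marker of radial glia in the same stretch, overlapped at 5.56 to 6.92 in wild type and 5.26 to 7.21 in null.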

How the data were processed

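RNA from cultured astrocytes was measured on spotted oligonucleotide arrays, 1 dye per sample. The authors deposited log2 values, 1 per probe and sample, with each sample's median at 0; base 2 was settled from the values themselves, since recurring low values are logs of small whole-number ratios. Neither labels nor headers name the scanner, background correction, filters or normalization. Symbols came from the platform annotation (18179 probes with 1 symbol, 87 with several, 15334 unnamed) and were checked against RefSeq.

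The 7 samples were fitted with limma 3.58.1 (R 4.3.3), with group and dye as terms (main) and with a replicate-set term added. Probes needed 2 values per side, and p-values were adjusted by Benjamini-Hochberg over all tested probes at 0.05. The script was tested on simulated data. Named genes were Gja1, 12 per direction by call and then smallest p in the main fit (groups not overlapping, null 3 and 4 measured), 8 per direction by change with the set term, fixed connexin and astrocyte genes, and up to 3 per list by smallest p; other names come from the added probe means, other probes, detection or the genes next to Gja1, or are said to be chosen after their values were seen. In lists a gene was read from the probe with most values, then the highest mean. Members and lists were chosen with earlier results of these data known. Alternatives were dye, replicate set, random and replicate blocks, added samples or columns, filters, scaling, array weights and leaving out each sample. Promoters came from RefSeq (GRCm38.p6).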

Additional observations from a re-analysis of the deposited data

Results flagged for a closer look

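Among 113 named probes with 4 null values, Dip2c stood apart in 1 sample. Null 3 read -0.06 (-0.0610), whereas the other 3 null samples read -1.22 to -1.07. A gap of this kind is found by chance in about 1 in 20 groups of independent values, so 1 among 113 probes is no more than that rate. Null 1 and 2 correlated at 0.991 and may not be independent.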

How the results depend on the processing

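For the 7-sample comparison, no probe was called without the dye term, with a random block, with siRNA samples or all 6 wild-type columns added, under either filter or scaling, without any 1 sample, or with consecutive replicates averaged (added after seeing the data, 171 probes at an unadjusted p of 0.05). Calls numbered 618 with the replicate-set term, 809 with null 3 and 4 alone, 131 with siRNA samples and the set term, 295 with array weights, 3 with siRNA samples, set term and random block (added after seeing the data) and 1256 at an unadjusted p with 1.5-fold. With the set term, calls numbered 127 without dye, 1534 with the random block, 131 with siRNA samples, 3 with all 6 wild-type columns, 969 after quantile normalization, 2176 with array weights, 3806 at an unadjusted p with 1.5-fold, and 32 to 1868 leaving out 1 sample.

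The difference of null 3 from null 4 correlated with that of wild type 3 from wild type 4 (r = 0.652 over 19058 probes). Replicate number and dye cannot be told apart here, since both samples numbered 3 were Cy3 and both numbered 4 were Cy5. For the same reason the replicate block over replicates 3 and 4, which leaves out wild type 6, equals a dye term. This block fit called 3045 probes, with Gja1 at -3.88. Gja1 passed the adjusted threshold at -3.19 with the set term or null 3 and 4 alone, -3.31 with siRNA samples and set term, and -4.42 with array weights. With the set term it missed it at -3.22 without dye and -3.19 with all 6 wild-type columns. It also missed it at -3.17 without wild type 3, -3.15 without null 3 and -3.25 without null 4. Leaving out any other 1 sample, it passed, at -3.88 to -2.52. With siRNA samples, set term and random block (added) Gja1 missed the threshold, at -3.11 (adjusted p 0.249, limma).

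Non-overlapping probes made up 32% with null 3 and 4, 56.5% with null 1 and 2 (added after seeing the data) and 8.98 to 18.5% leaving out 1 sample. One-sided values numbered 1177, 3099 and 163 to 335 in the same order. With fewer samples both patterns arise more easily by order alone, so these figures are not comparable with those of all 7 samples. The median of the genes next to Gja1 was 0.44 with the set term or null 3 and 4 alone, 0.36 with the replicate block, 0.27 with siRNA samples and set term, 0.28 with all 6 wild-type columns, -0.044 under either filter, 0.031 with array weights, 0.31 and 0.20 in the added fits with siRNA samples and with averaged replicates, and -0.66 to 0.32 leaving out 1 sample. The median change of all tested probes shifted with the setting too, from -0.07 in the main fit to 0.33 with the set term. Cav2 turned to 1.38 with siRNA samples and set term and 1.32 with the block too. With all 6 wild-type columns, Itgb1 turned to 0.66, Zyx to 0.37, Tnfaip3 to -0.14, Cks2 to 0.93, Zfp36 to 0.22, Atp1b1 to 0.58, Fgf10 to -1.05, Uqcrb to 1.13 and, with the set term, Pnma1 to -0.64. The 6 columns include the 3 left out of the comparison, wild type 1, 2 and 5, which correlated with the average of the others at 0.370, 0.380 and -0.0201. The cause of these turns was not tested. Signal over background is unknown, which limits reading of dim probes.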
